A study of Caenorhabditis elegans with 2 samples.

Results

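Binding of LIN-38 was described at 10 genes of the EGF, Ras and MAP kinase pathway that induces the vulva of Caenorhabditis elegans, chosen by name and function out of 19973 protein-coding genes on the nuclear chromosomes. They are lin-3, let-23, sem-5, let-60, lin-45, mek-2, mpk-1, lin-1, lip-1 and sur-2, and all 10 were found in the Ensembl annotation of WBcel235. For each gene the deposited peaks and weaker candidates in its promoter, in its introns and up to 5 kb from either end were collected.

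LIN-38 was mapped by chromatin immunoprecipitation and sequencing (ChIP-seq) in whole L4 larvae of strain RW12236, genotype st12236[lin-38::TY1::EGFP::3xFLAG] II. In this strain a CRISPR insertion tags the endogenous lin-38 gene, and an antibody against GFP recovered the tagged protein from sonicated chromatin. Starved L1 larvae obtained after bleaching were the starting point of the synchronised cultures, and the larvae were taken at 48 hours; their sex was not collected. There was 1 group of 2 biological replicates, with no untagged or mutant group to compare, and the control libraries were not analysed here. Values from whole larvae do not show which cells a peak comes from. The cells of the vulva and the anchor cell are a small part of the animal. Only L4 larvae were sampled, so binding at earlier stages, including the time of vulval induction, was not measured.

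LIN-3 is an EGF-like ligand that the anchor cell of the gonad sends to the vulval precursor cells. It binds the receptor tyrosine kinase LET-23, which acts through the adaptor SEM-5 on the Ras protein LET-60 and the kinases LIN-45 (Raf), MEK-2 (MEK) and MPK-1 (ERK). MPK-1 relieves repression by the ETS factor LIN-1 and is switched off by the phosphatase LIP-1, and SUR-2 is a Mediator subunit needed for the output of the pathway. LIN-38 belongs to the synMuv A class of genes, which share with the synMuv B genes the task of keeping lin-3 silent outside its normal source. The anchor-cell enhancer described for lin-3 lies in an intron and holds E-boxes.

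At lin-3, LIN-38 had a strong promoter peak and no intronic peak that passed the authors' threshold. The sequence of the whole promoter peak is shown because the account of lin-3 rests on it, and the intronic E-box pair because the deposited lists hold only weak candidates there. The mpk-1 window is from an intronic peak that both replicates called, the lin-1 window from the strongest summit near that gene, just past its 3′ end, and the lip-1 window from a promoter peak near the lower end of the list. All are WBcel235 sequence from the RefSeq genome, printed along the gene's strand. Capitals mark TTTGAA, CTGCGTCT, and, in the intronic pair, CACCTG, or the reverse complement of these. The lin-3 peak is chrIV:11053976-11054251, plus strand, the intronic pair chrIV:11059139-11059238, plus strand, the mpk-1 window chrIII:4223787-4223886, minus strand, the lin-1 window chrIV:2275720-2275819, minus strand, and the lip-1 window chrIV:6842576-6842675, plus strand.
lin-3 promoter peak: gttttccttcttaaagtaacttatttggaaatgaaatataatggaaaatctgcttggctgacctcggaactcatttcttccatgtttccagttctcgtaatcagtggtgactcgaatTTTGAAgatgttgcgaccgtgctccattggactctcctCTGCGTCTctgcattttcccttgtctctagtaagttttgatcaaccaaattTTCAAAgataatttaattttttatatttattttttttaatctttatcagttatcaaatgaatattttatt
lin-3 intron E-box pair: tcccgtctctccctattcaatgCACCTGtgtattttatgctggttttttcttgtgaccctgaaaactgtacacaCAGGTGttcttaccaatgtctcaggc
mpk-1 summit window: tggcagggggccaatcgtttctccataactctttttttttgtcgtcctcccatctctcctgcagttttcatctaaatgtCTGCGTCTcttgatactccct
lin-1 summit window: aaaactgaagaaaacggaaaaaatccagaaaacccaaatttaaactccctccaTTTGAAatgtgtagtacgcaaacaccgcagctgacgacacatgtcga
lip-1 summit window: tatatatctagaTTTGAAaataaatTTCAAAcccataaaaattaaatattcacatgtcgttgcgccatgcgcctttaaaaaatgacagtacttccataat

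The lin-3 peak is 276 bp long and 32.2% G or C. TTTGAA, a cell cycle homology pattern known in mammals from promoters bound by MuvB complexes, starts 10 bp before the summit and, on the other strand, 79 bp after it. Neither the E2F-type pattern TTCCCGC nor its variant TTGGCGC is in the peak. The same was found for a further variant, TTCGCGC. It was also found for TTGCCGC. The run CTGCGTCT, which was picked after the lin-3 peak had been read, starts 28 bp past the conservative summit, 12 bp past the summit called in replicate 1 and 5 bp past the summit called in replicate 2. It also starts 30 bp past the intronic mpk-1 summit.

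All patterns were searched on both strands in 100 bp windows around the 16 conservative summits within 5 kb of these genes. TTTGAA was in 5 of the 16 windows, near lin-3, let-60, lin-1, again lin-1, and lip-1. It was in 21.4% of the windows at all conservative summits, and in 28.9% of the 100 bp windows upstream of all protein-coding genes. CTGCGTCT was in 2 of the 16 windows, of which the lin-3 window is the one it was picked from. It was in 1 of the other 15 windows, at mpk-1, beside 5.85% of all summit windows and 1.26% of all upstream windows. An E2F-type pattern was in 3 of the 16 windows, near let-23 (TTCCCGC), mek-2 and sur-2 (TTGCCGC at both). At least 1 of the 4 E2F-type patterns was in 12.1% of all summit windows and 2.67% of upstream windows. For each pattern alone, 2.09% to 3.92% of all summit windows held it, against 0.531% to 1.00% of upstream windows. TTCGAA and CACCTG were in none of the 16 windows, and in 6.59% and 2.52% of all summit windows, against 6.09% and 3.06% of upstream windows. At the length of the lin-3 peak, 52.2% of all summit windows and 61.4% of upstream windows held TTTGAA, and 9.14% and 3.52% held CTGCGTCT. A match is a description of the letters in a window, not a binding site, and a window without one says nothing about the factor.

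The lists behind these values were made by the authors by the irreproducible discovery rate (IDR). This measure is low where a peak has a similarly high rank in both inputs. The conservative list, made from both replicates, held 5405 nuclear peaks, and the replicates' own thresholded lists held 4429 and 4474. The ranked lists also keep candidates that miss the threshold of 0.010, and held 57581 and 57714 nuclear candidates. Each peak carries a signal value, the authors' own score of its height, whose scaling is not stated. Its median was 211 in the conservative list, and 138 and 133 in the lists of replicates 1 and 2, so values are set side by side only within a list or between the replicates. In the conservative list 49.3% of peaks had 1 width, 376 bp, and a median signal value of 134, against 439 for the peaks of other widths. Over 5342 conservative peaks with a value in both replicates, the log2 ratio of replicate 1 to replicate 2 had a median of 0.04 and an SD of 0.40. Read counts are not part of these lists, so the depth is unknown, and 1 group of 2 replicates allows no test.

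Of the 10 genes, 4 had a conservative summit in a promoter window, which opens 500 bp before an annotated 5′ end and closes 200 bp after it: lin-3, lin-45, lip-1 and sur-2. Over all protein-coding genes 14.6% had such a summit. A gene has a window at each annotated 5′ end, and the 10 genes ran from 1 such end at sem-5 to 7 at lin-3. A summit in the gene or within 5 kb was found for 9 of the 10, all but sem-5, where the share over all genes was 40.7%. A summit in an intron was found for 3 of the 10, mek-2, mpk-1 and lin-1, against 5.20% of all genes. These are long genes: their median length was 8753 bp, against 2027 bp over all protein-coding genes, and all 10 were longer than that median. Among 8754 genes no shorter than the shortest and no longer than the longest of the 10, 47.6% had a summit within 5 kb and 9.45% had an intronic summit.

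The counts were lower in the replicates' own lists. In replicate 1, 3 of the 10 had a promoter summit (13.2% of all genes), 8 a summit within 5 kb (38.1%) and 2 an intronic summit (4.25%). In replicate 2, 2 had a promoter summit (13.1%), 7 a summit within 5 kb (37.8%) and 2 an intronic summit (4.08%). The promoter peaks of lin-3 and sur-2 were called in both replicates, that of lip-1 in replicate 1, and that of lin-45 in neither.

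The 16 conservative summits near the 10 genes fell in 4 promoter windows of these genes and in 5 intronic positions, and 7 lay in neither. For 8 of the 16 the nearest 5′ end of a coding gene was that of the pathway gene itself. Both replicates' lists held 8 of the 16 peaks, 1 list held 4 and neither held 4, while 64.6% of all conservative peaks overlapped both lists and 17.5% overlapped neither. These counts need an overlap of 1 bp with the conservative peak. At a reciprocal overlap of at least 50%, both lists held 7 of the 16. Of the 16, 11 had the common width of 376 bp and 6 lay above the list's median signal value. The log2 ratio of replicate 1 to replicate 2 ran between -0.73 and 0.55.

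**Figure D1:**
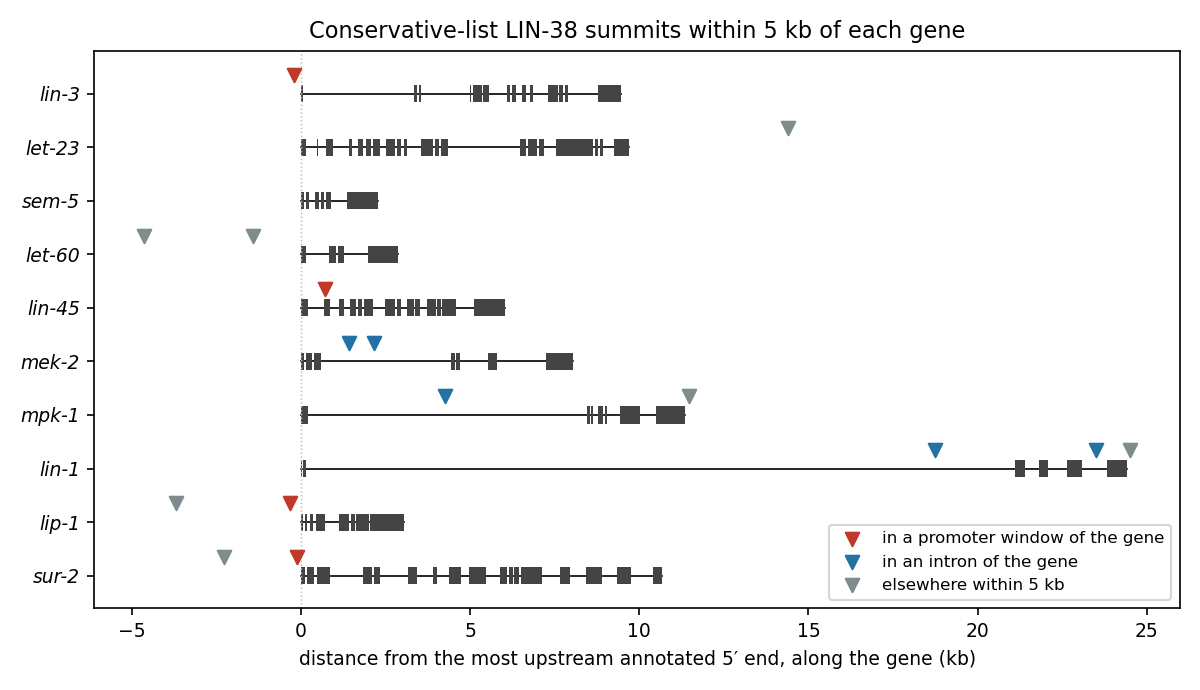
Each of the 10 genes is drawn along its own strand, with position in kb from its first annotated 5′ end, exons as boxes and conservative summits as triangles coloured by place (promoter window, intron or elsewhere). Summits lie near 9 of the 10 genes, with none within 5 kb of sem-5.

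The ligand gene lin-3 (WBGene00002992, chromosome IV, 11054308 to 11063768, plus strand) had 1 conservative peak within 5 kb. The replicates gave it signal values of 378 (replicate 1) and 323 (replicate 2), at an IDR of 1.00e-05 in both, and 709 in the conservative list. The replicates differed by 0.23 on the log2 scale, less than the SD of 0.40 over all peaks. In both replicates, then, lin-3 had a peak well inside the threshold.

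The lin-3 peak covered 332 to 57 bp upstream of the first annotated 5′ end, with the conservative summit 205 bp upstream and the replicates' summits 16 and 23 bp closer to the gene. The 3 summits spanned 23 bp. The peak lies between lin-3 and the divergent gene F36H1.12 (11052751 to 11053702, minus strand), whose 5′ end is 606 bp from that of lin-3. The summit is 401 bp upstream of F36H1.12, inside its promoter window too, so the peak cannot be given to lin-3 alone. The annotation has 7 5′ ends for lin-3, of which 5 lie 3356 to 4991 bp downstream of the first, and no conservative summit was near any of those 5.

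By signal value, 84.9% of conservative peaks were lower than the lin-3 peak, and 82.3% and 79.9% of the peaks in the lists of replicates 1 and 2 were lower than its peak there. Among 2538 conservative peaks in a promoter window of a coding gene it was 592nd, with 76.7% lower and a median of 283. The 4 promoter peaks next to it in that order had signal values of 715.6 at rpac-19, 710.0 at smo-1, 708.7 at W02A11.1 and 708.3 at rpl-23, beside 708.8 at lin-3. Replicates 1 and 2 gave 343 and 366 at rpac-19, 373 and 370 at smo-1, 404 and 292 at W02A11.1, and 323 and 363 at rpl-23. These 4 were chosen as the nearest in signal value, so their likeness to lin-3 comes from that choice.

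The introns of lin-3 held only candidates. Of the 12 candidates within 5 kb in the ranked list of replicate 1, 10 were intronic, the highest with a signal value of 36.0. In replicate 2, 6 of 7 were intronic, the highest at 28.3. The lowest IDR among them was 0.241 in replicate 1 and 0.666 in replicate 2, far from the threshold. In either replicate the promoter peak was the sole passing candidate near lin-3.

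The E-box CACCTG occurs 3 times in the introns of lin-3, at 467 bp from the first 5′ end in intron 1, and at 4853 and 4905 bp in intron 3 on opposite strands. The pair in intron 3 spans 58 bp and ends 81 bp before the 5′ end that lies 4991 bp downstream. A candidate covered the pair in the ranked list of each replicate and in the ranked list behind the conservative list. In replicate 1 the candidate with the nearest summit had a signal value of 36.0, above 78.5% of candidates, and an IDR of 0.241. Its summit was 65 bp before the middle of the pair. Another candidate of replicate 1 also covered the pair, with a signal value of 17.8, an IDR of 0.241 and its summit in a coding exon. In replicate 2 the candidate had a signal value of 15.7, above 33.9% of candidates, with an IDR of 0.836 and its summit 25 bp past the middle. The ranked list behind the conservative list gave 58.7 and an IDR of 0.593. No candidate over the pair therefore passed in any of these lists, and the depth at which a weaker peak would pass is unknown. Whether the pair is the described enhancer was not tested.

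**Figure D2:**
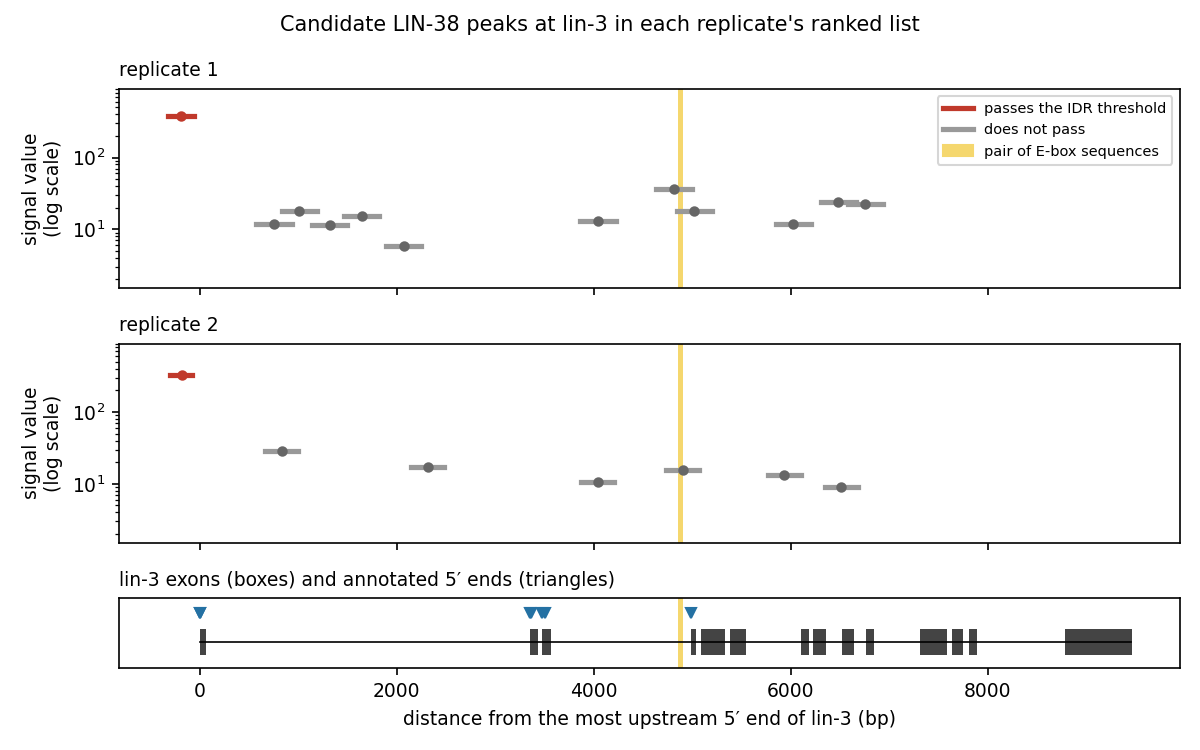
Candidates of replicates 1 and 2 are plotted above the lin-3 gene model, with distance in bp from the first 5′ end on the horizontal axis, signal value on a log vertical axis, passing candidates in red and the E-box pair as a yellow band. The promoter candidates at 378 and 323 stand above the intronic ones, none of which exceeds 36.0.

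The receptor gene let-23 (WBGene00002299, chromosome II, 9197512 to 9207213, plus strand) had the barest locus. Each ranked list held 1 candidate within 5 kb of it, none in its 9702 bp body and none in a promoter window. That candidate was a strong peak, with signal values of 227 and 216 in replicates 1 and 2 and 449 in the conservative list, where 75.2% of peaks were lower. Its summit lies 4681 bp past the 3′ end of let-23, in an intron of ZK1067.4 and in the promoter windows of a tRNA gene (WBGene00014640) and the noncoding RNA gene ZK1067.10. The next conservative summit beyond let-23 lay just outside the 5 kb limit, at 6031 bp, with a signal value of 158. The peak at ZK1067.4 thus counts let-23 among genes with a peak within 5 kb although no deposited candidate touches the gene.

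The adaptor gene sem-5 (WBGene00004774, chromosome X, 7959453 to 7961723, minus strand) was without a passing peak. Its nearest conservative summit was 52841 bp away. Within 5 kb, replicate 1 had 13 candidates with a highest signal value of 62.8 and a lowest IDR of 0.151, and replicate 2 had 8 with 45.9 and 0.318. None of these candidates lay in its promoter window.

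The Ras gene let-60 (WBGene00002335, chromosome IV, 11688227 to 11691088, minus strand) had 2 conservative peaks upstream, both beyond the promoter window. The nearer summit, 1412 bp upstream and in an exon of the noncoding RNA gene ZK792.10, had signal values of 133 and 105 in replicates 1 and 2 and 237 in the conservative list, and both replicates called it. The coding gene with the nearest 5′ end was ZK792.12, at 1293 bp. The farther summit, 4645 bp upstream, lay in the promoter window of ZK792.7, with 67.0 and 79.2 in replicates 1 and 2 and 139 in the conservative list, and replicate 2 alone called it. A candidate that missed the threshold lay at the outer edge of the let-60 promoter window in both replicates. In replicate 1 it had 41.2 and an IDR of 0.570, with its summit 492 bp upstream, and in replicate 2 it had 46.4 and an IDR of 0.674, with its summit 501 bp upstream and 1 bp outside the window. The ranked list made from both replicates gave 82.8 and an IDR of 0.0217, at 495 bp upstream. No passing summit was therefore closer to let-60 than to another annotated coding gene.

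The Raf gene lin-45 (WBGene00003030, chromosome IV, 6742537 to 6748572, minus strand) had its conservative summit inside the gene. It lay 721 bp from the first 5′ end and 32 bp downstream of the nearest of 6 annotated 5′ ends. The same summit lies in an intron of an annotated transcript of lin-45. The signal value was 59.3 and 69.6 in replicates 1 and 2, and 156 in the conservative list, where 34.9% of peaks were lower. The IDR was 0.678 in replicate 1 and 0.0920 in replicate 2, so neither replicate called it. In the ranked list behind the conservative list the IDR was 0.00187, within the threshold. The summit is close to an internal 5′ end, and its signal is among the lower ones.

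The MEK gene mek-2 (WBGene00003186, 3005403 to 3013448 on chromosome I, minus strand) had 2 conservative summits in its introns. One, at 2150 bp from the 5′ end, is also in a coding exon of col-48, a collagen gene nested in mek-2 on the other strand. It had 49.7 and 82.7 in replicates 1 and 2, the widest replicate difference of the 16 at -0.73 on the log2 scale, and 119 in the conservative list. The other, at 1428 bp, had 51.2 and 49.1 in replicates 1 and 2 and 82.7 in the conservative list, where 4.55% of peaks were lower. The authors' other thresholded list from both replicates did not hold this summit. Both replicate lists overlap that second peak by at least 1 bp, but the replicates' summits lay 102 bp below and 259 bp above its summit in genome position. The peaks called there in replicates 1 and 2 did not overlap each other. At the 5′ end of mek-2 there were candidates of 53.0 and 25.8 in replicates 1 and 2, with IDRs of 0.375 and 0.370. At the col-48 summit the replicates lay close together, 14 bp below and 11 bp above the conservative summit, although replicate 2 alone called it. Both mek-2 summits had signal values below the list's median, and the replicates' summits lay far apart at the weaker one.

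The ERK gene mpk-1 (WBGene00003401, chromosome III, 4216763 to 4228108, minus strand) had the intronic peak with the lowest IDR among the 10 genes in both replicates. Its signal value was 104 and 100 in replicates 1 and 2, at IDRs of 4.31e-04 and 3.03e-04, and 196 in the conservative list, where 46.5% of peaks were lower. The replicates differed by 0.06 on the log2 scale. A weaker summit lay 121 bp past the 3′ end of mpk-1, in a coding exon of phlp-2, with 63.7 and 50.3 in replicates 1 and 2 and 122 in the conservative list, and neither replicate called it. That summit was also missing from the authors' other thresholded list from both replicates. In the promoter windows of mpk-1 the highest candidates had 22.0 and 43.0 in replicates 1 and 2, with IDRs no lower than 0.275 and 0.216. The peak that both replicates called at mpk-1 was inside the gene, and neither conservative summit was in a promoter window of mpk-1.

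The ETS repressor gene lin-1 (WBGene00002990, chromosome IV, 2275861 to 2300286, minus strand), at 24426 bp the longest of the 10, had 3 conservative summits. The strongest was 91 bp past its 3′ end and 148 bp upstream of M70.5, the gene that follows on the same strand. It had 180 and 207 in replicates 1 and 2 and 379 in the conservative list, and both replicates called it. The 2 intronic summits had 112 and 106 in the conservative list. At the first, replicates 1 and 2 had 61.9 and 54.1, and at the second 54.7 and 60.5, and neither replicate's list held either. The summit that both replicates called near lin-1 was thus in the promoter window of its neighbour.

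The ERK phosphatase gene lip-1 (WBGene00003043, chromosome IV, 6842958 to 6846011, plus strand) had a promoter summit 332 bp upstream. Its signal value was 74.5 and 51.0 in replicates 1 and 2, at IDRs of 0.00224 and 0.418, and 119 in the conservative list, where 19.1% of peaks were lower. A second summit 3697 bp upstream had 95.0 and 82.1 in replicates 1 and 2 and 181 in the conservative list. It lay among the noncoding RNA genes C05B10.19 and C05B10.21 and the piRNA genes 21ur-14312 and 21ur-8870. Replicate 1 alone called both of the lip-1 peaks.

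The Mediator subunit gene sur-2 (WBGene00006349, 14777137 to 14787804 on chromosome I, minus strand) had the strongest peaks of the 10 genes. The promoter summit, 128 bp upstream, had signal values of 591 and 551 in replicates 1 and 2 and 1145 in the conservative list, where 90.9% of peaks were lower. A stronger summit lay 2282 bp upstream, at the next gene, uev-1, which encodes a ubiquitin-conjugating enzyme variant and starts 158 bp from it on the other strand. It had 979 and 904 in replicates 1 and 2 and 1880 in the conservative list, where 94.4% of peaks were lower. Both replicates called both peaks, and the replicates differed by 0.10 and 0.11 on the log2 scale.

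**Figure D3:**
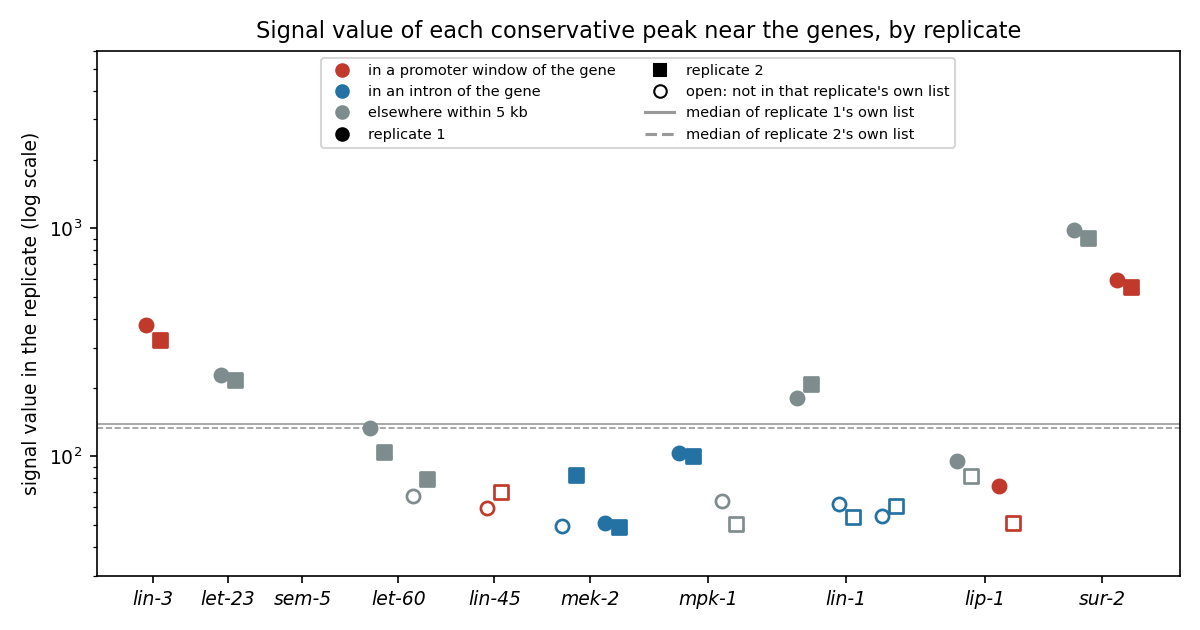
The signal value of the 16 conservative peaks near the 10 genes is plotted on a log axis by gene, with circles for replicate 1, squares for replicate 2, open marks where that replicate's own thresholded list lacks the peak, and lines at the lists' medians. The peaks of sur-2, lin-3, let-23 and the 3′ end of lin-1 are the highest in both replicates, and the 4 peaks in neither list lie between 50.3 and 69.6.

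By signal value, the order of the 4 promoter peaks in the conservative list was sur-2, lin-3, lin-45 and lip-1, at 397th, 592nd, 1914th and 2249th of 2538 promoter peaks. Both replicates put sur-2 above lin-3, and lin-3 above lin-45 and lip-1. Between lin-45 and lip-1 the order turned: lip-1 was higher in replicate 1 (74.5 against 59.3 at lin-45) and lin-45 in replicate 2 (69.6 against 51.0 at lip-1), so these neighbours do not differ beyond their spread.

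The ranked lists extended the counts without adding passing peaks. Within 5 kb of the 10 genes there were 184 candidates in replicate 1 and 183 in replicate 2, of which 10 passed the threshold in each. Over all nuclear candidates, 4448 of 57581 passed in replicate 1 and 4498 of 57714 in replicate 2. The lowest score in the list, at an IDR of 0.843 in replicate 1 and 0.836 in replicate 2, was held by 92 and 84 of the nearby candidates. That lowest score was held by 44.3% and 43.8% of all candidates. Of the candidates near the 10 genes, 145 in replicate 1 overlapped a candidate of replicate 2, and 142 in replicate 2 overlapped one of replicate 1. The share of all candidates with such an overlap was not computed, so these 2 counts have no background. The number of candidates per gene ran between 1 at let-23 in both replicates and 39 and 44 at lin-1 in replicates 1 and 2.

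Genes were also counted where each replicate's ranked list held a candidate, whether or not the candidates of the replicates overlapped. By this count 7 of the 10 genes had a promoter summit, against 31.6% of all protein-coding genes. The exceptions were let-23, sem-5 and let-60, where the replicate 2 summit fell 1 bp outside the window. Counted the same way, all 10 had a candidate within 5 kb, against 59.3% of all genes, and 8 had an intronic one, against 24.4%. At lin-1 the promoter candidates of 21.8 in replicate 1 and 25.3 in replicate 2 were at different 5′ ends.

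A wider list of EGF and Ras pathway genes was examined the same way, and 33 of its 34 names were found in the annotation. A conservative promoter peak was found at 6 of the 33, or 18.2%, beside 14.6% of all protein-coding genes. With the 10 genes above, 10 of 43 had such a peak. The 6 were cnk-1, a scaffold that assists Raf, eor-1, a zinc finger factor that acts downstream of Ras signalling, lin-7, which helps to localise the LET-23 receptor, unc-101, a clathrin adaptor subunit that limits LET-23 signalling, ptp-2, a SHP-type phosphatase, and sur-6, a regulatory subunit of protein phosphatase 2A.

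The cnk-1 peak was the highest, with 1775 and 1598 in replicates 1 and 2 and 3372 in the conservative list, its summit 316 bp upstream. The eor-1 peak had 804 and 622 in replicates 1 and 2 and 1436 in the conservative list, 113 bp upstream. The lin-7 peak had 312 and 308 in replicates 1 and 2, and also lay in promoter windows of elof-1 and Y54G11A.17. These and the unc-101 peak (202 and 132 in replicates 1 and 2) were called in both replicates. The ptp-2 peak (76.1 and 95.5) was called in replicate 2 and the sur-6 peak (51.4 and 55.0) in neither. Of the 33 genes, 19 had a conservative summit within 5 kb, against 40.7% of all protein-coding genes, and 4 had one in an intron, against 5.20%. The median length of the 33 was 5985 bp, and among 11232 genes within their range of lengths the shares were 45.4% and 8.29%. The Raf scaffold gene and eor-1 thus had higher promoter signals than any of the 10 core genes, 1145 at sur-2 being the highest there.

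**Figure D4:**
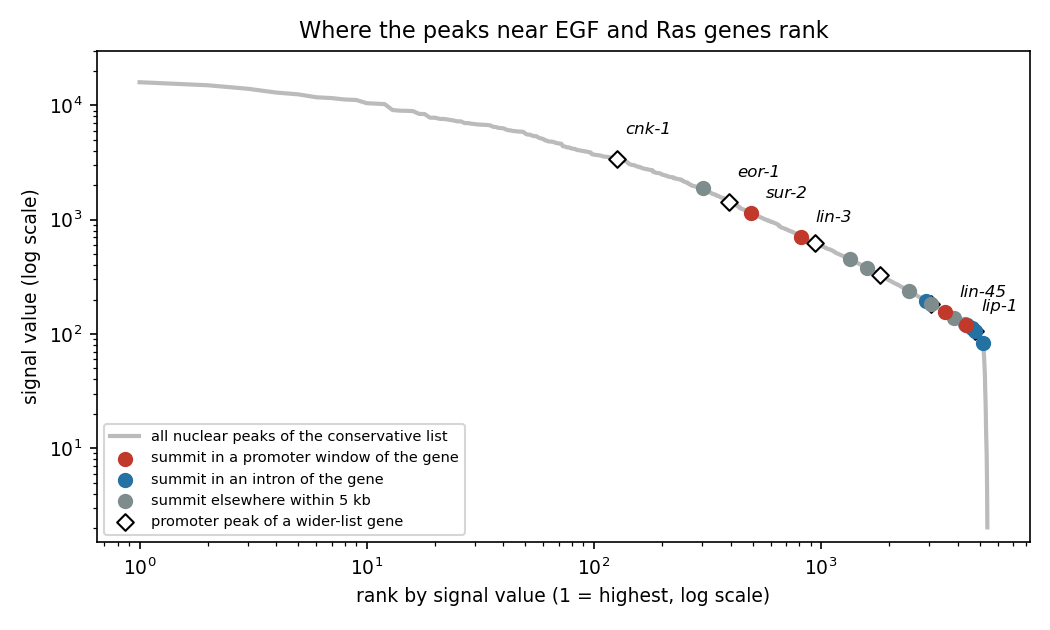
All conservative nuclear peaks are plotted as a line of signal value against rank, both on log axes, with the 16 peaks near the 10 genes as coloured points and the promoter peaks of the wider list as diamonds. The peaks of sur-2 and lin-3 lie above the list's median of 211 and those of lin-45 and lip-1 below it.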

How the data were processed

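LIN-38-EGFP ChIP-seq of whole L4 larvae was represented by 8 peak lists that the authors deposited for 2 samples, biological replicates of 1 group. Per the deposited output list, coordinates are ce11 (WBcel235). Each sample has a ranked and a thresholded IDR list of its own, and the series adds 2 ranked and 2 thresholded lists from both samples, of which the conservative thresholded list was the main set. For the aligner and peak caller, names and versions were not given in the sources used here. The signal value and the scaled IDR score were deposited by the authors as scores per peak, and their q value and global IDR were deposited as −log10 values. No thresholded peak had a score under 830, which is an IDR of 0.010. Depth per sample is unknown, so no interval was computed.

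Nuclear summits were placed against Ensembl release 115 with Python 3.11.15, pandas 2.3.3 and numpy 2.4.6. Promoter windows opened 500 bp before each 5′ end and closed 200 bp after it, nearby meant within 5 kb of the gene, and an intronic summit lay in no exon of the gene. Replicate values came from the overlapping candidate with the nearest summit in that replicate's ranked list, and a peak counted as shared at an overlap of 1 bp. Placement was tested on simulated peaks. No test was run: counts stand beside the same share over all protein-coding genes. Genes named were the 10, the coding gene with the nearest 5′ end or a promoter window at each nearby summit, wider-list genes with a promoter peak, and the 2 promoter peaks above and below that of lin-3 in signal value. The members and lists were chosen with earlier results of these data known. The noncoding genes and the nearest summits beyond 5 kb were named after their values were seen. Alternatives changed the list, window, distance, overlap and ranking column.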

Additional observations from a re-analysis of the deposited data

How the results depend on the processing

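The count of 4 genes with a promoter peak was 2 among conservative peaks above the median signal value (lin-3 and sur-2), 2 in a window from 200 bp upstream to 100 bp downstream (lin-45 and sur-2), 7 with candidates of both ranked lists, and 2 to 3 in the list of a single replicate. The conservative lin-3 summit, 205 bp upstream, lies just outside that narrower window by its construction. The summits called in replicates 1 and 2, at 189 and 182 bp upstream, lie inside it. Above the median signal value, genes with a peak within 5 kb numbered 5 of 10 and genes with an intronic peak 0. Single-replicate lists gave 7 to 8 and 2. Nearby summits numbered 6 above the median, and 10 to 10 in the list of either replicate, against 16. Peaks shared by both replicates numbered 16 with ranked lists, against 8. Nearly all conservative peaks, 5342 of 5405, overlapped a candidate in both ranked lists. Wider-list genes with a promoter peak numbered 2 in the narrower window and 18 with ranked candidates, against 6. The share of peaks lower than that of lin-3 was 80.8% by the deposited q value and 79.9% to 82.3% in single replicates, against 84.9%. For these, the cause was not tested. Of 42 alternatives, 27 stayed within the limits set for an unchanged count or share, but these limits allowed small counts to change. Among the 27, counting only the gene with the nearest 5′ end gave 6 genes with a peak within 5 kb, against 9. A window from 1000 bp upstream to 500 bp downstream gave 9 wider-list genes with a promoter peak, against 6. An intron of any transcript, chosen after seeing the data, gave 4 genes against 3. No paired analysis was possible because there is 1 group only. Depth is unknown, so a missing peak is not shown to be an absence of binding.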
